A study of Mus musculus with 2 samples.

Results

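The genes described here are the DNAJ co-chaperones, taken as the 45 names of the table that begin with DNAJ, a class letter A, B or C, and a number. They are 45 of 25430 distinct names, 4 of class A, 13 of class B and 28 of class C, and all 45 matched a RefSeq symbol. Expression was measured by RNA sequencing in 1 Sptbn1 knockout library and 1 wild-type library of primary mouse embryonic fibroblasts. The cells came from embryos of heterozygous Sptbn1 parents at embryonic day 13.5 and were grown in medium with 10% fetal bovine serum. Sptbn1 encodes beta-2 spectrin, a scaffold protein of the membrane skeleton, and the comparison asks how expression differs when it is disrupted. The labels do not give the number of embryos behind each library, the design of the knockout allele or the strain. With 1 library a genotype, no difference has a replicate check, and each value below compares these libraries and not the genotypes.

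DNAJ proteins carry a J domain, a short helical fold whose conserved histidine, proline and aspartate loop stimulates ATP hydrolysis by HSP70 chaperones. They bring unfolded or assembled clients to HSP70 and so decide where in the cell and on which protein it works. Class A and class B members bind unfolded clients themselves, whereas class C members share only the J domain and mostly serve a single place or machine, such as the endoplasmic reticulum (ER), the mitochondrial import motor, the spliceosome or the clathrin coat.

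Values are FPKM, fragment numbers scaled to transcript length and to the mapped total, so levels can be compared between genes of different length. The header of the wild-type column reads WT but also shows -/-, so each direction rests on reading that column as wild type. Sptbn1 stood at 36.6 FPKM in the knockout and 69.6 FPKM in the wild type, 52.5% of the wild-type value. The value is lower, as the label has it, but Sptbn1 fragments remained in the library labelled knockout, and an FPKM of the whole gene does not show whether an intact transcript was lost. The name knockout is used below as the label gives it. Fragment totals were not used here, so depth is known only in relative terms. The commonest ratio of knockout to wild type among the lowest rows was 1.61, with 395 of 3100 such rows within 0.005 of it on the log2 scale. It was read as the ratio of rows with equal fragment numbers. On that reading a single fragment in the knockout library stood for 1.61 times the FPKM of a fragment in the wild-type library. The knockout library would then be the shallower. The fibroblast markers were high in both libraries (10 of 10 measured, summing to 3349 FPKM in the knockout and 3481 FPKM in the wild type). The 10 macrophage and leukocyte markers were also measured, none of them at 0. They summed to 747 FPKM in the knockout and 1218 FPKM in the wild type. Most of either sum was a single row for Lyz1 and Lyz2, at 572 FPKM in the knockout and 979 FPKM in the wild type. Of the 10 markers, 9 were lower in the knockout library on the deposited scale and 6 on a common FPKM sum. The part of these markers in the DNAJ values was not tested. In bulk RNA, fewer cells of a type and less RNA per cell cannot be told apart.

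Short promoter stretches show which stress-response sequences a few members carry, since DNAJ genes of the ER and of the cytosol are classical targets of the unfolded protein and heat shock responses. RefSeq promoters (build GRCm38.p6, 250 bases before to 50 after the gene start) were present for 37 members and were searched on both strands. The other 8 members could not be searched, so a member not named below need not lack an element. The ER stress element, CCAAT and CCACG with 9 bases between them, was found in the Dnajc3 promoter, at chr14:118937807-118937865 with its flanks, and in 0.137% of all genes searched. The related ER stress element II, ATTGG and CCACG with 1 base between them, was found in Dnajb11 at chr16:22857832-22857882 and in 0.0444% of genes. A heat shock element of 3 units (GAA, TTC and GAA, each pair 2 bases apart) was found in Dnajb6 at chr5:29735832-29735884 and in 0.662% of genes. The pair GAA and TTC at the same spacing, which is part of that longer element, was found in 5 members and 9.04% of genes, and among the 5 is Dnaja1 at chr4:40722324-40722371. The opposite pair, TTC and GAA, also part of the longer element, was found in 3 members and 9.60% of genes. Each stretch lies on the plus strand and capitals mark the match.
Dnajc3: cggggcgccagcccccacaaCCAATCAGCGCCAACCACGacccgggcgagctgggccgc
Dnajb11: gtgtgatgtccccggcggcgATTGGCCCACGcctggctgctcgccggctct
Dnajb6: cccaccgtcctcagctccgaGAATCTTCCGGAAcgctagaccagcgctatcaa
Dnaja1: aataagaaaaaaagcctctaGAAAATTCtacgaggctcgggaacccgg

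Apart from Dnaja1, the DNAJ genes had nearly the same FPKM in both libraries. Genes averaging at least 1 FPKM over both libraries count as measured, which held for 32 of the 44 other members and for 11070 names in the table. The difference of a gene is given as log2((knockout FPKM + 1)/(wild-type FPKM + 1)), a scale that understates the change of low genes. Of the 32 members, 0 differed by 1.2-fold or more in either direction, a difference that 16.2% of all measured genes reached. Without the added 1 FPKM, Dnaja4 passed 1.2-fold, at 82.8% of its wild-type value (log2 ratio -0.27). With 0.1 FPKM added instead, the count was again 0 of 32, against 23.5%. With the median gene set to 0 the count was 2 of 32 (Dnajb9 and Dnajc25, both higher in the knockout library), against 14.9%, and on a common FPKM sum it was 25 of 32, each higher, against 65.8%. At 1.5-fold the count was 0 of 32, against 2.27% of all measured genes, and at 2-fold 0 of 32, against 0.741%. The extremes were Dnajb9 at 0.22 and Dnaja2 at -0.21. The typical size of a difference was close to that of other genes, with a median absolute log2 ratio of 0.12 for the members and 0.12 for all measured genes. On the deposited scale 17 of 32 members lay below 0, against 63.1% of all measured genes, and the median log2 ratio was -0.05 for the members and -0.05 for all measured genes. These directions depend on the scaling. With the median gene set to 0, 1 of 32 members changed sign and 16 lay below 0. Once both columns were set to a common FPKM sum, 32 of 32 members lay above 0. There the median of all measured genes moved to 0.33. A few rows weigh heavily on that sum. Mir682 was listed at 70570.5 FPKM in the knockout and 112596 FPKM in the wild type, and Dnaja1 at 3.79 and 21626 FPKM.

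**Figure D1:**
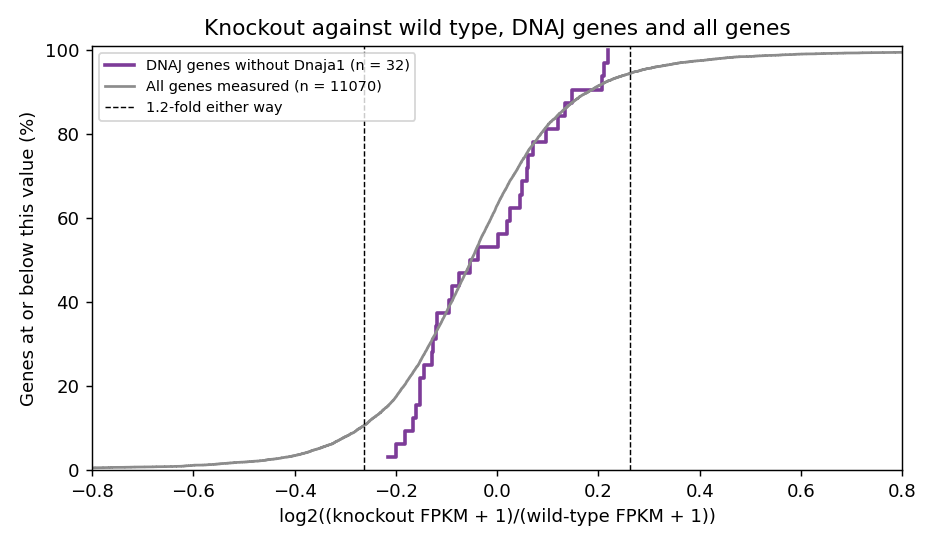
Cumulative share of genes (vertical axis, percent) at or below each log2((knockout FPKM + 1)/(wild-type FPKM + 1)) on the horizontal axis, for 32 DNAJ genes without Dnaja1 and for all 11070 measured genes. Dashed lines mark 1.2-fold either way, and the whole DNAJ curve runs between them, from -0.21 to 0.22, while the curve of all genes has tails on both sides, 16.2% of genes outside the lines. Beyond the drawn range of 0.8 either way lie 119 genes, none of them among the 32.

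Dnaja1, which encodes a farnesylated cytosolic HSP40 that works with HSP70 in folding and import, was the exception and is given apart as an outlying value. It was listed at 3.79 FPKM in the knockout and 21626 FPKM in the wild type, a log2 ratio of -12.14. The wild-type value was the second highest of all names in that library and 5.59% of its FPKM sum, 59.2 times the sum of the 32 other measured members there. In the knockout library Dnaja1 ranked 6851st and took 0.00135% of the sum. Only 14 measured names were at least 100-fold apart between the libraries, and the other 13 carried the prefixes of micro, small nucleolar or small nuclear RNA genes. Among them, Mir370 was listed at 0 in the knockout library and at 21622 FPKM in the wild-type library, next to the Dnaja1 value. For Dnaja1 the authors' deposited table gave p = 0.0233.

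The genes beside Dnaja1 on chromosome 4 showed no such gap. Smu1, a splicing factor gene, was at 12.4 FPKM in the knockout and 14.2 FPKM in the wild type, and Aptx, which encodes a DNA end-processing enzyme, at 2.34 FPKM in the knockout and 2.29 FPKM in the wild type. Fragments of Dnaja1 can also match elsewhere. Its longest coding transcript in GENCODE vM21 matched 3 pseudogenes at 95% identity or more over at least 200 bases, the longest match covering 1194 bases at 99.4% identity. The same held for Dnajb6 (5 pseudogenes), Dnajc17 (1), Dnajc19 (1) and Dnajc5b (1), making 5 of 45 members. Among measured members other than Dnaja1 it held for 2 of 32, against 8.73% of 9082 measured coding genes. The part of such copies in the Dnaja1 values was not tested.

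Cytosolic class A and class B members bind unfolded proteins and hand them to HSP70. Dnaja2, the most abundant of them after Dnaja1 is set apart, was at 27.1 FPKM in the knockout and 31.6 FPKM in the wild type (log2 ratio -0.21). Dnaja4 was low, at 1.45 FPKM in the knockout and 1.75 FPKM in the wild type (-0.17). The heat-inducible Dnajb1, the canonical HSP40, was at 14.9 FPKM in the knockout and 12.8 FPKM in the wild type (0.21). Both directions thus occurred within the group, with 4 of 7 measured members other than Dnaja1 below 0 and 3 above. The Dnajb1 relative Dnajb4 was at 23.9 FPKM in the knockout and 22.9 FPKM in the wild type (0.06), and its other relative Dnajb5 at 2.51 FPKM in the knockout and 2.82 FPKM in the wild type (-0.12). Dnajb6, a suppressor of polyglutamine aggregation, was at 6.83 FPKM in the knockout and 7.54 FPKM in the wild type (-0.13). It was the only member listed in more than 1 row, and the lower row, which was not used, held 1.89 FPKM in the knockout and 1.77 FPKM in the wild type. Dnajb2, a neuron-enriched member with ubiquitin-binding motifs, was at 4.03 FPKM in the knockout and 3.95 FPKM in the wild type (0.02).

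**Figure D2:**
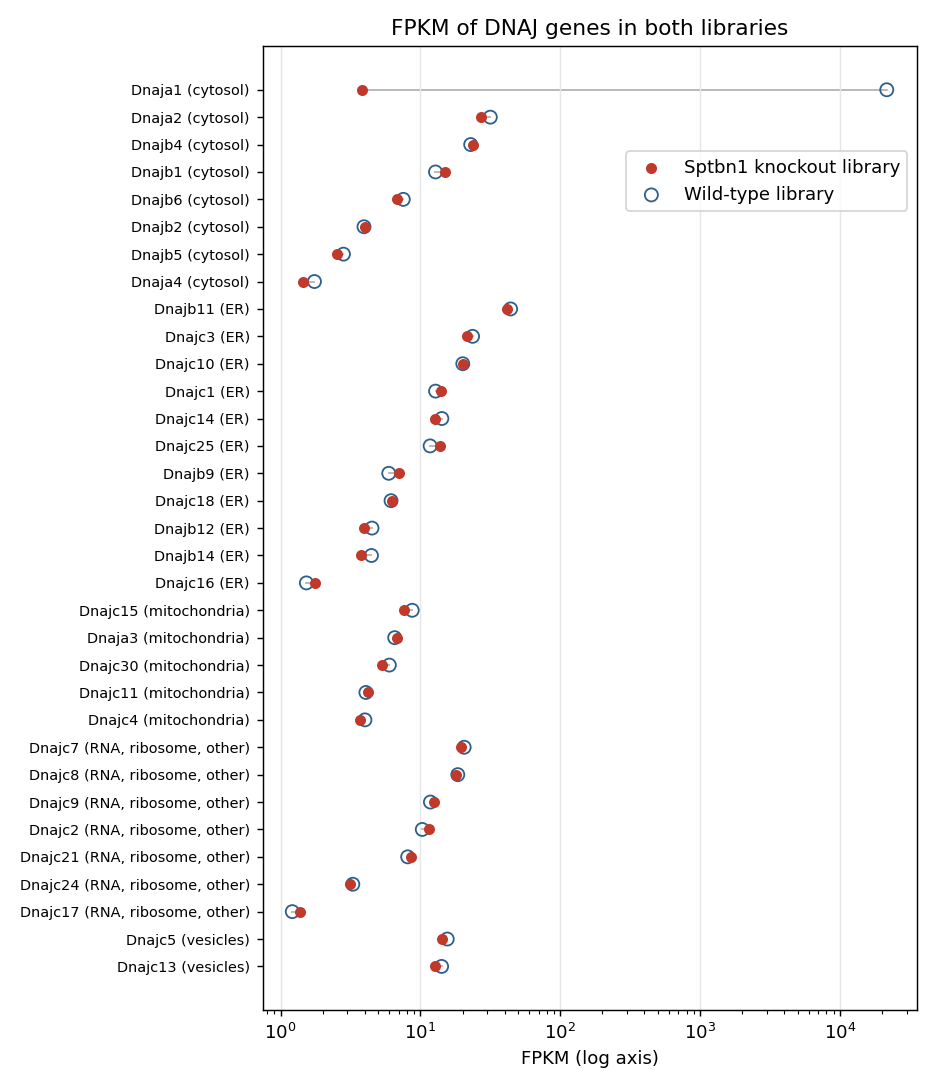
FPKM on a log axis of the 33 measured DNAJ genes, grouped by where their products act, with filled points for the Sptbn1 knockout library and open circles for the wild-type library. The points of 32 genes nearly coincide, whereas Dnaja1 has its filled point at 3.79 FPKM and its open circle at 21626 FPKM.

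ER members made up the largest part of the family. The 11 measured ones summed to 146 FPKM in the knockout and 149 FPKM in the wild type, which was 41.1% of the FPKM of the 32 members in the knockout and 40.8% in the wild type. Dnajb11 (ERdj3), which binds nascent and misfolded secretory proteins together with the ER HSP70 and carries the ER stress element II shown above, had the highest level of the 32. It was at 41.5 FPKM in the knockout and 44.2 FPKM in the wild type (-0.09). Dnajc3 (p58IPK), an ER client-binding protein and the member with the ER stress element, was at 21.5 FPKM in the knockout and 23.6 FPKM in the wild type (-0.13). Dnajc10 (ERdj5), a disulfide reductase of ER-associated degradation, was nearly equal at 20.12 FPKM in the knockout and 20.09 FPKM in the wild type (0.00).

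Several ER members leaned the other way, by less than 1.2-fold on the deposited scale. Dnajb9 (ERdj4), an unfolded protein response target that restrains IRE1, was at 7.08 FPKM in the knockout and 5.94 FPKM in the wild type (0.22), the highest ratio of the 32. Dnajc25, an ER membrane protein, was at 13.7 FPKM in the knockout and 11.7 FPKM in the wild type (0.21). Dnajc1 (ERdj1), which binds ribosomes at the ER, was at 14.0 FPKM in the knockout and 12.8 FPKM in the wild type (0.12). Those known as unfolded protein response targets thus lay on both sides, Dnajb9 above 0 and Dnajb11 and Dnajc3 below. The paralogs Dnajb12 and Dnajb14, ER membrane proteins that work in degradation of misfolded membrane proteins, had log2 ratios of -0.14 and -0.20. Dnajb14 was at 3.76 FPKM in the knockout and 4.46 FPKM in the wild type, with the lowest p-value among the 32 in the authors' deposited table, 0.185. Dnajc14, which aids receptor export from the ER, was at -0.16, Dnajc16 at 0.13 and Dnajc18 at 0.02. In all, 5 of 11 measured ER members lay below 0 and 6 above.

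The 5 measured mitochondrial members summed to 27.6 FPKM in the knockout and 29.4 FPKM in the wild type. Dnajc15, an inner membrane relative of the import motor subunit, was at 7.59 FPKM in the knockout and 8.74 FPKM in the wild type (-0.18). Dnaja3 (Tid1), the J protein of the mitochondrial matrix, was at 6.81 FPKM in the knockout and 6.54 FPKM in the wild type (0.05). Neither difference reached 1.2-fold, and the same held for Dnajc30 (-0.15), Dnajc4 (-0.10) and Dnajc11 (0.04), the last a partner of the cristae-organising complex. Dnajc19, the import motor subunit itself, fell just short of the level limit with a mean of 0.983 FPKM, while the lowest measured member, Dnajc17, had a mean of 1.29 FPKM. Dnajc19 was listed at 1.30 FPKM in the knockout and 0.670 FPKM in the wild type, a log2 ratio of 0.46, wider than that of any of the 32 measured members, and it is among the members with a matching pseudogene.

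Members that act on RNA, ribosomes, histones or client transfer stood close to 0. Dnajc7, a tetratricopeptide repeat protein that binds both HSP70 and HSP90, was at 19.5 FPKM in the knockout and 20.6 FPKM in the wild type (-0.07). The spliceosome-associated Dnajc8 was at 18.0 FPKM in the knockout and 18.5 FPKM in the wild type (-0.04), and the histone chaperone Dnajc9 at 12.4 FPKM in the knockout and 11.8 FPKM in the wild type (0.07). Dnajc2, the ribosome-bound partner of a cytosolic HSP70, had the widest difference of the group, at 11.5 FPKM in the knockout and 10.3 FPKM in the wild type (0.15). Dnajc21, which works in assembly of the large ribosomal subunit, was at 0.06, the splicing-associated Dnajc17 at 0.10 and Dnajc24, a J protein of diphthamide synthesis, at -0.05.

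Both measured vesicle and endosome members were slightly lower in the knockout library on the deposited scale, though not on a common FPKM sum. Dnajc5, the cysteine string protein of secretory vesicles, was at 14.2 FPKM in the knockout and 15.6 FPKM in the wild type (-0.12). Dnajc13, which acts on sorting endosomes, was at 12.7 FPKM in the knockout and 14.2 FPKM in the wild type (-0.15). The neuronal clathrin-uncoating factor Dnajc6 (auxilin) was listed at 0.0443 FPKM in the knockout and 0.0756 FPKM in the wild type. Its ubiquitous relative Gak, a J-domain gene with another name, stood far higher, at 9.46 FPKM in the knockout and 11.5 FPKM in the wild type (-0.26).

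**Figure D3:**
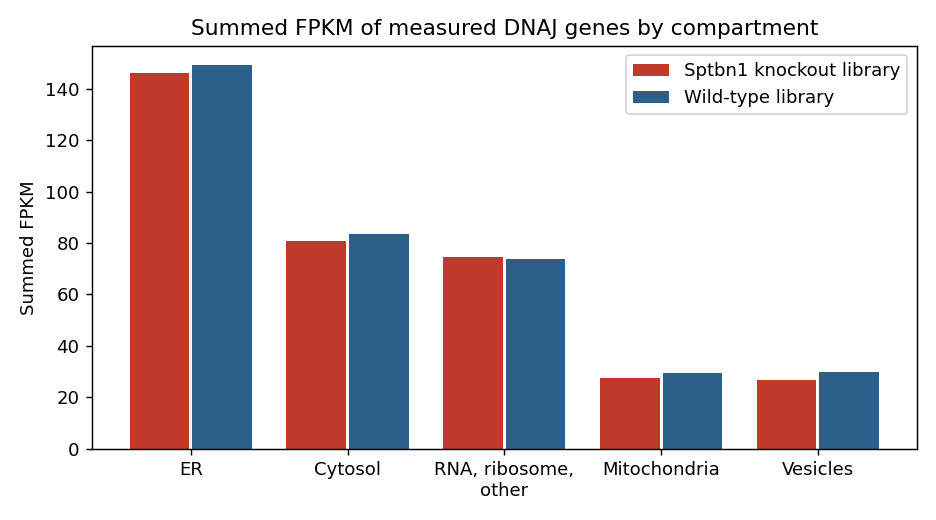
Summed FPKM of the measured DNAJ genes without Dnaja1 by compartment, with the Sptbn1 knockout library left of the wild-type library in each pair and bars starting at 0. ER members have the tallest bars (146 FPKM in the knockout and 149 FPKM in the wild type), and the bars of each pair are close in height.

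The order of levels was much the same in both libraries. The 32 members summed to 356 FPKM in the knockout and 365 FPKM in the wild type, and spanned 33.2-fold from Dnajb11 to Dnajc17 by their mean. Between the libraries no member moved by more than 4 places in this order, and 7 kept their place. Across the 32 genes, a description only since genes are no replicates of a library, log2(FPKM + 1) gave a Pearson's r of 0.993 and the ranks a Spearman's rho of 0.982. Across all measured genes the values were 0.947 and 0.973. Those include Dnaja1 and the other names at least 100-fold apart, whereas the 32 leave Dnaja1 out, so they are not like for like. Members were somewhat more abundant than measured genes in general, with a median of 8.23 FPKM against 5.41 FPKM for all measured genes.

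The remaining 12 members lay below the level limit, and Dnajc19 and Dnajc12, a co-chaperone of aromatic amino acid hydroxylases, were the highest of them. Dnajc12 was listed at 0.835 FPKM in the knockout and 0.939 FPKM in the wild type. The members known mainly from testis or ciliated cells were at or near 0, as were the markers of those cells, of which 0 of 8 reached the limit. Dnajb13, an axonemal protein, had 0.168 FPKM in the knockout and was listed at 0 in the wild type, and the authors' deposited table gave it p = 0.0277. Dnajb3, a testis member, was listed at 0.579 FPKM in the knockout and 0.360 FPKM in the wild type. Its ratio equalled, within 0.005 on the log2 scale, the worth of a single fragment given above. On the reading given there, that is the ratio that equal numbers of fragments give. Dnajb8, Dnajc22, Dnajc5b and Dnajc5g were listed at 0 in both. The authors' deposited table gave p below 0.05 to 2 of the 45 members (Dnaja1 and Dnajb13), against 3.96% of all names. Among the 32 measured members it did so for 0, against 5.6% of measured genes. With 1 library a genotype those p-values hold no spread between cultures.

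HSP70 proteins are the partners of the DNAJ proteins in each compartment. Hspa5 (BiP), the HSP70 of the ER, was at 187 FPKM in the knockout and 194 FPKM in the wild type (-0.05), and the mitochondrial Hspa9 at 68.7 FPKM in the knockout and 68.3 FPKM in the wild type (0.01). The summed FPKM of ER DNAJ genes was 0.785 times that of Hspa5 in the knockout and 0.771 times in the wild type. For mitochondrial DNAJ genes and Hspa9 the ratios were 0.402 in the knockout and 0.430 in the wild type. Hspa8, the constitutive cytosolic HSP70, was listed low, at 5.64 FPKM in the knockout and 5.19 FPKM in the wild type (0.10). Its coding transcript matched 5 pseudogenes by the same measure, and their part in its level was not tested. Of 12 measured HSP70 family genes, 6 lay below 0 and 6 above on the deposited scale, and the list median was -0.02. On a common FPKM sum 1 of 12 lay below 0 and the median was 0.36. On the deposited scale 2 of the 12 were lower by 1.2-fold or more, Hspa4l (-0.32) and the heat-inducible Hspa1b (-0.31), against 10.6% of all measured genes.

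A list of HSP70 exchange factors and regulators had 14 measured genes, which also count Hspa8, itself an HSP70 and part of the family above. Of the 14, 10 lay below 0 on the deposited scale, against 63.1% of all measured genes. On a common FPKM sum 0 did so. The list median was -0.15, beside -0.05 for all measured genes, and on the common sum it was 0.28, beside 0.33. On the deposited scale 3 of 14 were lower by 1.2-fold or more, against 10.6% of all measured genes: the mitochondrial exchange factor gene Grpel2 at 1.88 FPKM in the knockout and 2.57 FPKM in the wild type (-0.31), Hspbp1 at 2.49 FPKM in the knockout and 3.32 FPKM in the wild type (-0.31), and the BiP exchange factor gene Sil1 at 3.42 FPKM in the knockout and 4.37 FPKM in the wild type (-0.28). The ubiquitin ligase gene Stub1 (CHIP) was at -0.24. None of the 14 differed by 1.5-fold.

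Heat shock response genes lay on both sides of 0 on the deposited scale. Dnaja1, at -12.14, is on this list but was left out of its counts, while the DNAJ member Dnajb1 was kept. Of the 17 other measured genes of the list, 8 lay below 0 and 9 above, with a median of 0.01. On a common FPKM sum 1 of 17 lay below 0 and the median was 0.46. The small heat shock protein gene Cryab was at 52.2 FPKM in the knockout and 41.1 FPKM in the wild type (0.34), so that on the deposited scale 1 of 17 was higher by 1.2-fold or more, against 5.54% of all measured genes. On the same scale 2 of the 17 were lower by as much, against 10.6%. They were the regulator gene Hsf1, at 8.91 FPKM in the knockout and 11.3 FPKM in the wild type (-0.31), and Hspa1b at -0.31. The mitochondrial chaperonin cofactor gene Hspe1, at 0.26, lay just under the 1.2-fold limit. Of 5 measured genes on a list of J-domain genes with other names, 2 lay below 0 and 3 above on the deposited scale, where the list median was 0.03, and 0 lay below 0 on a common FPKM sum. Dnlz, on that list although it encodes a zinc finger partner of mitochondrial HSP70 and no J domain, was at 0.30, past 1.2-fold on the deposited scale. Hscb, the J protein of iron-sulfur cluster assembly, was at 0.08, and Sec63, the ER translocon J protein, at 20.8 FPKM in the knockout and 20.3 FPKM in the wild type.

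**Figure D4:**
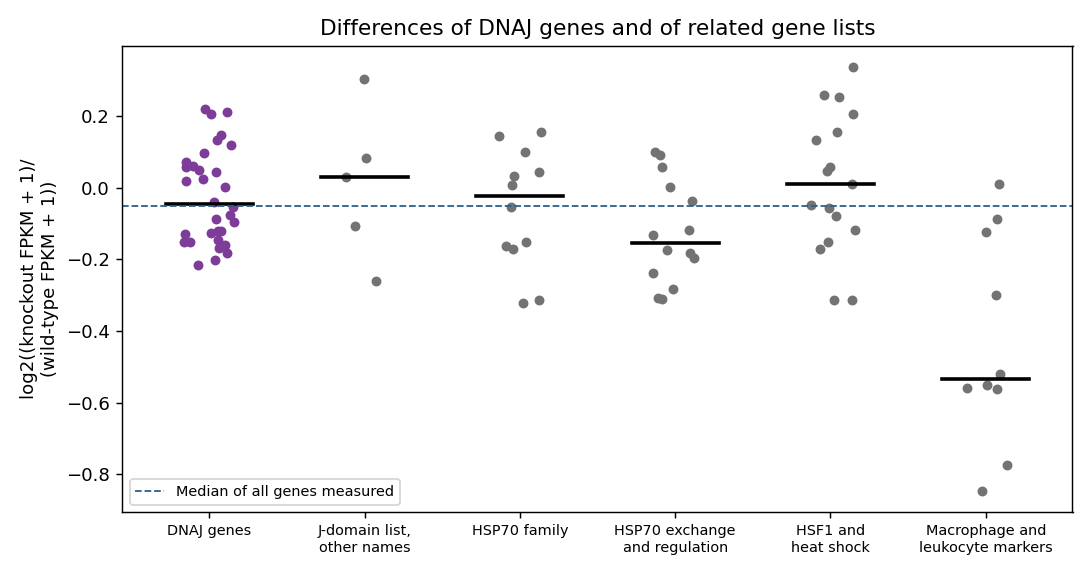
Each point is a measured gene and its height is log2((knockout FPKM + 1)/(wild-type FPKM + 1)); horizontal bars are list medians and the dashed line is the median of all measured genes. Dnaja1 is left out of both the DNAJ genes and the heat shock list. DNAJ genes stay between -0.21 and 0.22, HSP70 exchange and regulation genes have a median of -0.15, and macrophage and leukocyte markers reach to -0.85.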

How the data were processed

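Per the labels' protocols, each Illumina TruSeq library was made from 1 µg of TRIZOL-extracted total RNA. The series' design text and the submitters' processing notes name FastQC, Trimmomatic, TopHat2 version 2.0.10 (alignment to NCBI mouse build 37.2), Cufflinks and Cuffdiff2. Per the file headers, the authors deposited FPKM per gene for each library and a p-value for the comparison.

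Members were rows whose name matched the DNAJ pattern. A repeated name was represented by its row with the highest mean. The members and lists were chosen with earlier results of these data known. With 1 library a genotype no test was run. Ratios used a pseudocount of 1 FPKM, and the named genes were each measured member, partners Hspa5, Hspa8 and Hspa9, and up to 4 genes per related list. Dnajc12, Dnajc19, Dnajb13, Dnajb3, Dnajc6, Mir370, Mir682, Smu1, Aptx, Sec63, the Lyz1 and Lyz2 row and the members at 0 were added after their values were seen. Fragments of near-identical genes are divided by estimation, so such levels are uncertain. Pseudogene matches came from BLAST 2.17.0 on GENCODE vM21 transcripts, names from RefSeq GRCm38.p6, a different build. The ratio step was tested on simulated data for genes of high level only, with 2-fold changes called at 1.5-fold (Python 3.11.15, pandas 2.3.3). That test covers neither low genes nor the 1.2-fold limit.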

Additional observations from a re-analysis of the deposited data

How the results depend on the processing

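The count of measured DNAJ genes at 1.5-fold or more (Dnaja1 left out) stayed at 0 under 6 other settings: a pseudocount of 0.1 FPKM, a mean of 5 FPKM or more, no filter on level, centring on the median gene, a common upper quartile and summed repeated rows. On a common FPKM sum it was 3, all higher in the knockout library (Dnajc25 at 0.64, Dnajb1 at 0.63 and Dnajb9 at 0.61), where 7.58% of all measured genes were higher by as much. Counting Dnaja1 gave 1, lower. The setting with no filter kept the pseudocount of 1 FPKM, which holds the ratios of members under 1 FPKM close to 0. Its count therefore says little about those members. With no pseudocount some of them passed 1.5-fold, such as Dnajc19 at 194% and Dnajc6 at 58.6% of the wild-type value. At 1.2-fold or more the count was 0 on the deposited scale, against 16.2% of all measured genes. Brackets give the share of all genes in the same setting. The count was 1 with no filter on level (13.3%), 2 after centring (14.9%) and 3 at a common upper quartile (14.8%). On a common FPKM sum it was 25 (65.8%), and with Dnaja1 counted 1 (16.2%). With no pseudocount Dnaja4 also passed 1.2-fold, at a log2 ratio of -0.27. The members' median log2 ratio was -0.0541 with the pseudocount of 0.1 FPKM, -0.0185 at a mean of 5 FPKM or more, -0.0406 with no filter and -0.0532 with Dnaja1. It was 0.0052 after centring, 0.0071 at a common upper quartile and 0.37 on a common FPKM sum. The share of members below 0 was 0.0% on that sum. A common sum without Mir682 and Dnaja1, added after seeing the data, gave a median of 0.19 and 3.12% below 0. Its count at 1.5-fold was 0, where 2.72% of all measured genes were higher by as much. At 1.2-fold its count was 10, against 28.7% of all measured genes. The sum scalings shift all genes, with medians of 0.33 and 0.17. No library could be left out, and no paired analysis was possible because each genotype has 1 library. Library fragment totals were not used here, so the precision of low values is unknown.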
